A study of Mus musculus with 8 samples.

Results

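Gm26917, AY036118, Lars2, Malat1 and Neat1 are transcripts tied to ribosomal RNA sequence or kept in the nucleus, and their levels were measured in mouse corneas. They were chosen by name as markers of library composition, with their FPKM in these libraries known. They make up 5 of the 23597 genes of the table, and all 5 were among the 12100 genes tested, those averaging 0.5 FPKM or more. FPKM is the number of fragments divided by the gene's length in kilobases and by the counted fragments of the library in units of 1e+06. The mice had dry eye from scopolamine, which blocks muscarinic receptors, and corneas were taken at day 14 of its injection. The ICI group was additionally given ICI 118551, which blocks the β2-adrenergic receptor, and the Scop group was not. Each group had 4 samples, each a pool of 4 corneas, and scopolamine was common to both groups. The sources used here do not give strain, age or which mouse gave which pool. Errors and p-values thus describe how far these 8 pools differ, which may be technical. Since the FPKM values chose the 5 genes, their levels and group differences are a description, with no test.

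Ribosomal RNA is transcribed in the nucleolus by RNA polymerase I as a long precursor, which is cut into the mature small-subunit and large-subunit RNAs. It makes up most of the RNA of a cell, and how much of it enters a library depends on how well it was removed beforehand. Gm26917 and AY036118 are noncoding gene models at a ribosomal RNA locus, and their values are commonly read as a sign of ribosomal RNA in a library. Lars2 encodes the mitochondrial leucyl-tRNA synthetase, and its last exon is known to hold a stretch that resembles large-subunit ribosomal RNA. Malat1 and Neat1 are long noncoding RNAs that stay in the nucleus. Malat1 gathers in nuclear speckles beside splicing factors, and Neat1 is the scaffold of paraspeckles, bodies that hold RNA-binding proteins such as NONO, SFPQ and PSPC1.

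Gm26917 and AY036118 lie side by side on chromosome 17. In the GENCODE M21 annotation of GRCm38 (the build that mm10 names), Gm26917 runs from 39843013 to 39846341 on the plus strand, and the annotated ribosomal RNA gene CT010467.1 starts 11 bases further on, running from 39846353 to 39848827 on the minus strand. AY036118 (39847113 to 39848035, minus strand) lies within that ribosomal RNA gene, and all 923 bases of its transcript match the ribosomal RNA transcript at 100% identity. The same 923 bases match the plus-strand model Gm42418 in reverse orientation, so without strand information reads of the locus cannot be assigned to a single model. The transcript of Gm26917 matched no other gene in a search of all GENCODE transcripts, and 69.1% of its bases were G or C, against 54.4% for AY036118, 51.2% for Lars2, 42.5% for Malat1 and 47.3% for Neat1. Lars2 lies far away, on chromosome 9 (123366927 to 123462666), and 72 bases of its 3′ untranslated region, in the last exon (123462048 to 123462119), match the noncoding gene Gm15564 of chromosome 16 at 98.6% identity. In that search the Lars2 transcript matched only Gm15564 and AA474408, another noncoding model. No large-subunit ribosomal RNA sequence was searched, so the known resemblance of Lars2 to it was not compared here. Malat1 (5795690 to 5802672) and Neat1 (5824708 to 5845478) are neighbours on chromosome 19, 22035 bases apart. The runs below show the end of Gm26917 nearest to the ribosomal RNA gene, the start of the GENCODE model of AY036118, which lies in full within the annotated ribosomal RNA gene, and the part of Lars2 that ties it to Gm15564. Capitals mark bases that Lars2, Gm15564 and AA474408 hold in common.
Gm26917, chr17:39846282-39846341, plus strand: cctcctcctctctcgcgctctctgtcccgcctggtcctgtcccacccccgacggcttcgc
AY036118, chr17:39847976-39848035, minus strand: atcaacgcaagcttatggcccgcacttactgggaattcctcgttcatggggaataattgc
Lars2, chr9:123462048-123462077, plus strand: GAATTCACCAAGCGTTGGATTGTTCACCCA

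The gene lengths behind the FPKM values could be read from the values themselves, and they bear on what was counted. Malat1 was counted over 6983 bases, the length of its annotated transcript, and Neat1 over 20773 bases, its span in RefSeq. Gm26917 was counted over 5792 bases, where GENCODE gives it 3329, and the distance from the start of Gm26917 to the end of Gm42418 is 5776 bases. AY036118 was counted over 1409 bases, where GENCODE gives it 923. RefSeq places AY036118 elsewhere at the locus, from 39848112 to 39898385, with no overlap with the GENCODE model. Which of these models the AY036118 row counts was not settled by its length. Lars2 was counted over 4420 bases and Gm15564 over 2094, where their GENCODE exons together cover 11089 and 821 bases. The sources used here do not give the positions of the counted bases, so the values of Gm26917 and AY036118 may include ribosomal RNA sequence that GENCODE assigns to other models. The sequence comparisons above use GENCODE models, and they may not describe the bases counted for Gm26917, AY036118, Lars2 and Gm15564. The libraries held between 34510508 (Scop replicate 3) and 40071182 (Scop replicate 1) counted fragments.

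Gm26917 was among the most abundant rows of the table. It stood at 3679.6, 3718, 3836 and 3666 FPKM in ICI replicates 1, 2, 3 and 4, and at 689, 912, 1119.6 and 4936 FPKM in Scop replicates 1, 2, 3 and 4. The ICI libraries lay close together, Scop replicates 1, 2 and 3 lay far below them, and Scop replicate 4 lay above every other library. Among the genes of a library it ranked 9th, 9th, 8th and 9th by FPKM in ICI replicates 1 to 4, and 87th, 74th, 57th and 6th in Scop replicates 1 to 4. The means were 3725 ± 77.1 FPKM in ICI and 1914 ± 2022 FPKM in Scop (SD, n = 4 each), so the SD was 2.07% of the mean in ICI and 106% in Scop. Its highest library was 7.16 times its lowest. By the SD of log2(FPKM + 1) over the 8 libraries, 1.13, it had the 5th largest spread of the 12100 genes.

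The AY036118 row had a like arrangement of libraries at a much lower level. It stood at 26.6, 22.1, 36.2 and 44.2 FPKM in ICI replicates 1 to 4, and at 3.45, 6.16, 6.23 and 34.3 FPKM in Scop replicates 1 to 4. Scop replicate 4 lay within the ICI libraries, and the other Scop libraries lay below all of them. Unlike Gm26917, it varied within ICI, with an SD of 30.7% of the mean. The lowest value rested on 195 fragments in Scop replicate 1 (exact 95% Poisson interval 169 to 224), an interval that covers counting error only. AY036118 numbered between 1.22 and 2.93 fragments per 1000 of Gm26917. ICI replicate 4 had the highest of these ratios and Scop replicate 1 the lowest.

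**Figure D1:**
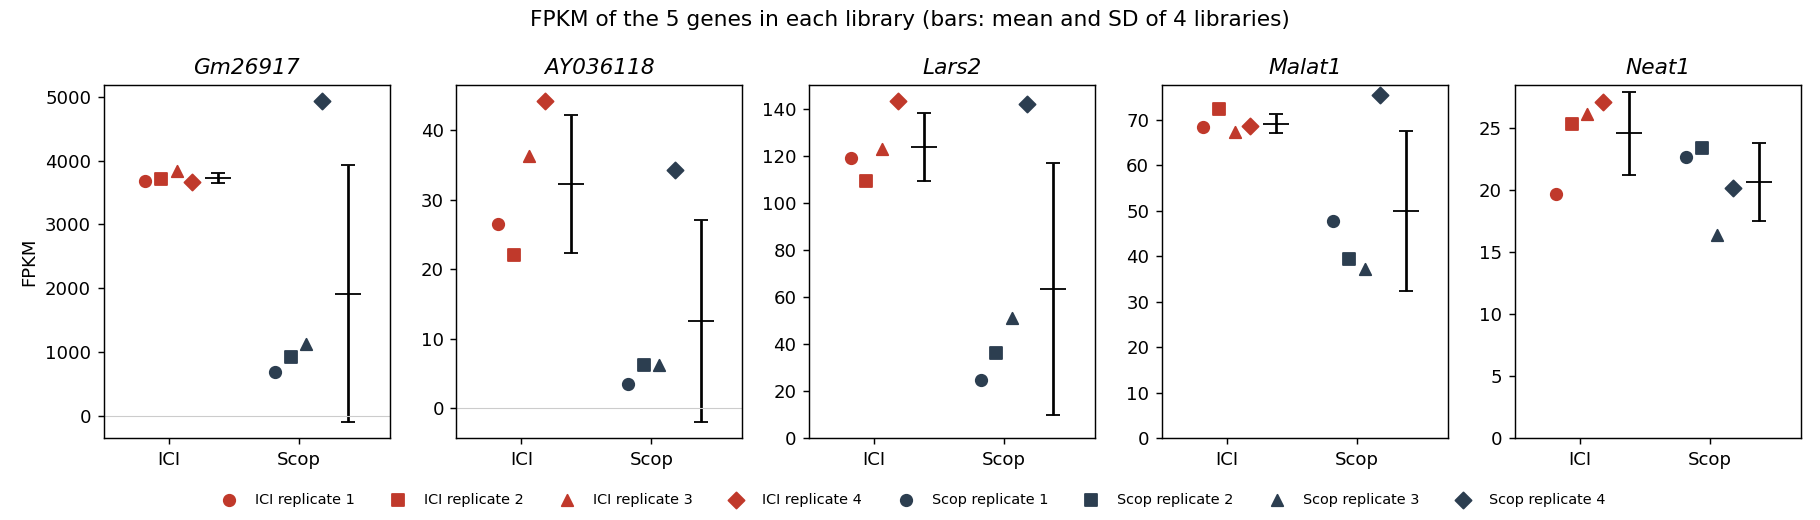
FPKM of Gm26917, AY036118, Lars2, Malat1 and Neat1 in the 4 ICI libraries (left in each panel) and the 4 Scop libraries (right), 1 point a library with a shape for each replicate number; black marks show mean and SD. In the Gm26917 panel the ICI points lie between 3666 and 3836 FPKM, Scop replicate 4 lies at 4936 and the other Scop libraries at 1119.6 or less.

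Lars2 had nearly the same libraries high and low. It stood at 119, 109.6, 123 and 144 FPKM in ICI replicates 1 to 4, and at 24.8, 36.1, 51.3 and 142 FPKM in Scop replicates 1 to 4. Scop replicate 4 was again among the high libraries. Scop replicates 1, 2 and 3 stood in the same order as for Gm26917, with replicate 1 lowest. Relative to Gm26917, Lars2 numbered 24.8, 22.5, 24.5 and 29.9 fragments per 1000 in the ICI libraries, and 27.5, 30.2, 35.0 and 22.0 per 1000 in the Scop libraries. The ratio stayed between 22.0 and 35.0 per 1000, while Lars2 itself differed by 5.78 times between its highest and lowest library.

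The other mitochondrial aminoacyl-tRNA synthetases, enzymes that charge mitochondrial tRNAs with their amino acids, varied less between libraries. Highest and lowest library differed by 1.13 to 2.92 times among these 16 genes, all below the 5.78 times of Lars2, and the largest ratio was that of Yars2. Lars2 was also the most abundant: its lowest library, at 24.8 FPKM, lay above the highest value of any of the 16, at 12.1 FPKM. Of the 16, 0 passed the test of ICI against Scop adjusted over all genes (limma), and at an unadjusted p under 0.05 the count was 0 higher and 1 lower. That gene was Cars2, the cysteinyl-tRNA synthetase, at 3.82 ± 0.249 FPKM in ICI and 4.66 ± 0.533 FPKM in Scop. Its ICI values all lay below its Scop values, as for 4.36% of all tested genes, but it was named for its small p. The median log2 fold change of the 16 was -0.05, beside -0.02 over all tested genes. Among all tested genes 4.56% were higher and 7.46% lower at an unadjusted p under 0.05.

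**Figure D2:**
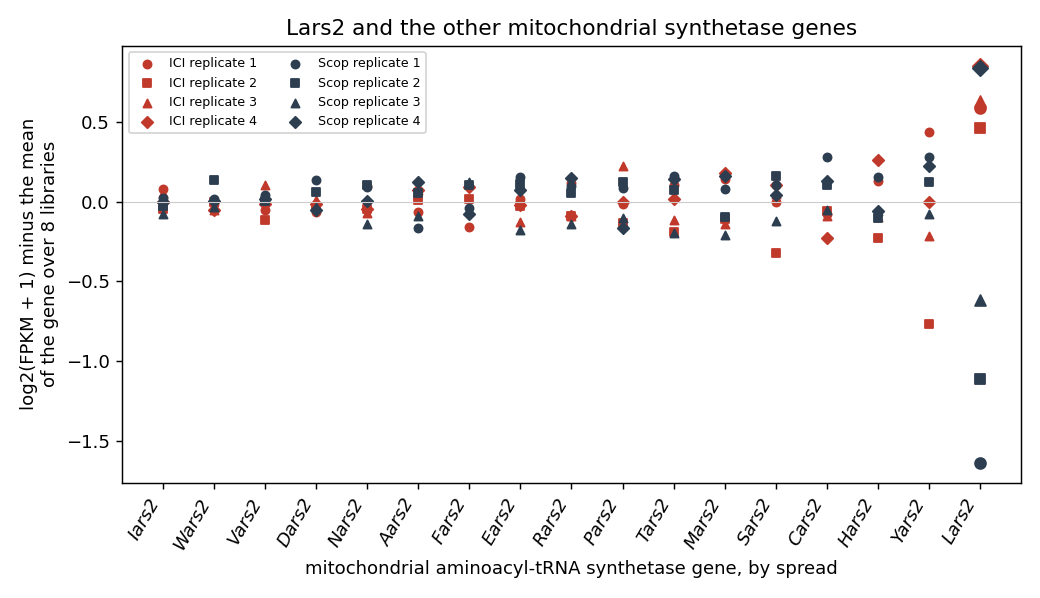
log2(FPKM + 1) of each of 17 mitochondrial aminoacyl-tRNA synthetase genes minus its own mean over the 8 libraries, 1 point a library, ICI in red and Scop in dark blue, genes ordered by their spread. Lars2, at the right, has an SD of 0.98 and the next largest, that of Yars2, is 0.37.

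Gm15564, which shares the stretch printed for Lars2 and is none of the 5 genes, was in a list of ribosomal RNA locus and small noncoding genes. That list was chosen with earlier results of these data known. With the sequence it shares with Lars2, its values are therefore a description and not separate evidence. It was low, at 0.776, 0.820, 0.764 and 0.862 FPKM in ICI replicates 1 to 4 and at 0.167, 0.218, 0.208 and 0.914 FPKM in Scop replicates 1 to 4. These values rested on 64, 68, 63 and 68 fragments in ICI and on 14, 18, 15 and 69 fragments in Scop. Scop replicate 4 had the highest value of the 8 libraries, and Scop replicates 1, 2 and 3 had the lowest. Gm15564 numbered between 66.9 and 87.5 fragments per 1e+06 of Gm26917 over the 8 libraries. In the comparison of the groups its log2 fold change was 0.42 (SE 0.15) on the log2(FPKM + 1) scale with limma's adjusted p = 0.316, so it did not pass. That scale understates the difference of a gene below 1 FPKM, and the ratio of its group means was 2.14. Of the 24 names in that list 4 were in the table, and Vaultrc5, a vault RNA gene, was at 0.368 FPKM or less in every library.

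**Figure D3:**
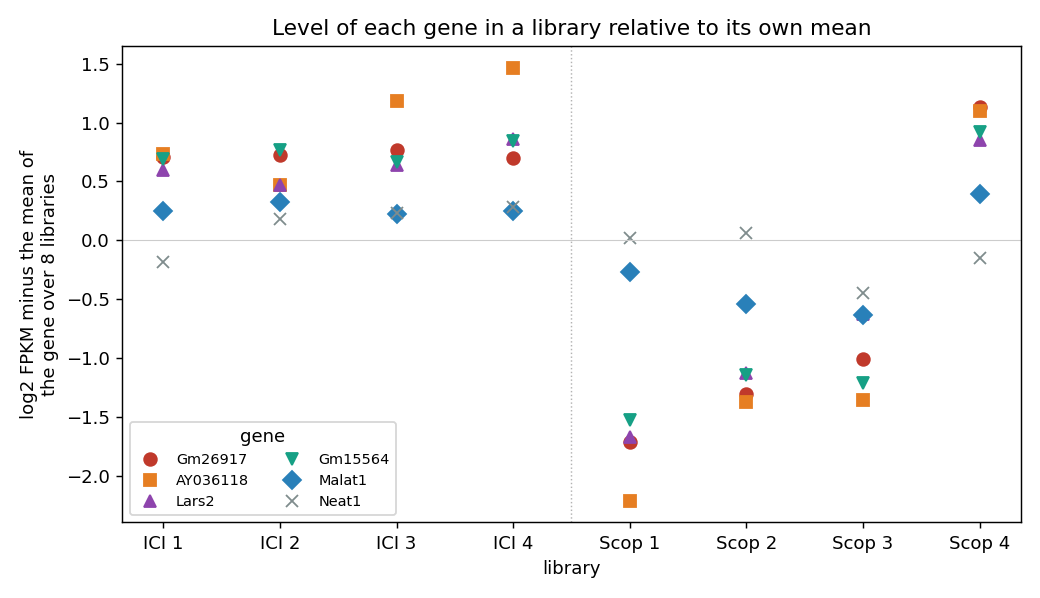
log2 FPKM of Gm26917, AY036118, Lars2, Gm15564, Malat1 and Neat1 in each library minus the mean of the gene over the 8 libraries, ICI libraries left of the dotted line and Scop libraries right of it. Gm26917, AY036118, Lars2 and Gm15564 lie above 0 in all 4 ICI libraries and Scop replicate 4 and below 0 in Scop replicates 1, 2 and 3, with Malat1 in the same arrangement over a smaller range and Neat1 in another.

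As a part of the whole library the 5 genes were small but uneven. They held 2.28%, 2.31%, 2.38% and 2.30% of all counted fragments in ICI replicates 1 to 4, and 0.491%, 0.621%, 0.732% and 3.02% in Scop replicates 1 to 4. The 95% Wilson interval of the Gm26917 share, the main part of these sums, was at most 0.0109 percentage points wide in any library, which covers counting error only. Since FPKM divides by all counted fragments, taking the 5 genes out of the depth would raise every other gene by 2.33% to 2.44% in the ICI libraries and by 0.494% to 3.12% in the Scop libraries. Between the group means this is a shift of 0.02 on the log2 scale. The differences between libraries in Gm26917 therefore moved the other genes by at most a few percent through the scaling.

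Malat1 had the same libraries high and low, over a narrower range. It stood at 68.5, 72.3, 67.4 and 68.6 FPKM in ICI replicates 1 to 4, and at 47.8, 39.5, 37.1 and 75.5 FPKM in Scop replicates 1 to 4. All 4 ICI libraries and Scop replicate 4 lay above Scop replicates 1, 2 and 3. Within those Scop libraries the order was the reverse of that of Gm26917, with Scop replicate 1 highest for Malat1 and lowest for Gm26917. The SD over the ICI libraries was 3.08% of the mean, close to the tightness of Gm26917 there. Malat1 numbered 18.4 fragments per 1000 of Gm26917 in Scop replicate 4 and 83.7 in Scop replicate 1, so its ratio to Gm26917 was not steady.

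Neat1, its neighbour on chromosome 19, was arranged differently. It stood at 19.7, 25.3, 26.1 and 27.1 FPKM in ICI replicates 1 to 4, and at 22.7, 23.3, 16.4 and 20.2 FPKM in Scop replicates 1 to 4. ICI replicate 1 lay within the Scop libraries, so the groups overlapped. Scop replicate 4, the highest library for Gm26917 and Malat1, was among the lower ones for Neat1, and Scop replicate 3 was the lowest. Highest and lowest library differed by 1.65 times. The ratio of Malat1 to Neat1 (FPKM, which is per length) ran from 2.53 to 3.48 in ICI and from 1.69 to 3.75 in Scop, with Scop replicate 4 highest and Scop replicate 2 lowest of the 8.

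Neat1 and Malat1 were among 25 names in a list of long noncoding RNAs, of which 23 were in the table and 14 others were tested. The list was drawn up for nuclear RNAs, but where each RNA lies in the cell was not measured, and not all are mainly nuclear. Of these 14, 0 passed the test adjusted over all genes, and at an unadjusted p under 0.05 the count was 1 higher and 2 lower in ICI. Among all tested genes 4.56% were higher and 7.46% lower at that threshold. Firre, a nuclear RNA transcribed from the X chromosome, was at 7.59 ± 1.04 FPKM in ICI and 5.66 ± 0.870 FPKM in Scop (limma's adjusted p = 0.281). Every ICI value of Firre lay above every Scop value, as for 2.63% of all tested genes. Firre was named for its small p, so that share is no fair comparison for it. H19, an imprinted RNA, was low, at 0.350 ± 0.189 FPKM in ICI and 0.762 ± 0.306 FPKM in Scop, and Dleu2 was at 1.62 ± 0.561 FPKM in ICI and 2.29 ± 0.150 FPKM in Scop. For both the groups overlapped. Mir22hg, the host gene of a microRNA, was at 12.7 ± 2.17 FPKM in ICI and 10.5 ± 0.809 FPKM in Scop. The 14 had 7 positive and 7 negative values, with a median log2 fold change of 0.02.

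The proteins that work with these RNAs were measured as transcripts beside them. Of 19 paraspeckle protein genes 0 passed, and at an unadjusted p under 0.05 the count was 2 higher and 4 lower in ICI (median log2 fold change -0.07). Among all tested genes 4.56% were higher and 7.46% lower at that threshold. Pspc1, a core paraspeckle protein, was at 11.2 ± 2.90 FPKM in ICI and 6.72 ± 1.23 FPKM in Scop. Its log2 fold change was 0.64 (SE 0.17) with limma's adjusted p = 0.214. Every ICI value of Pspc1 lay above every Scop value, as for 2.63% of all tested genes. The chromatin remodeller Smarca4 was at 12.2 ± 0.662 FPKM in ICI and 13.7 ± 0.411 FPKM in Scop, and the RNA-binding protein genes Taf15 and Rbm14 had log2 fold changes of -0.24 (SE 0.09) and -0.17 (SE 0.07). Of 22 nuclear speckle and splicing protein genes 0 passed, with 0 higher and 2 lower at an unadjusted p under 0.05 (median -0.04). Pnn, which encodes the speckle protein pinin, was at 18.7 ± 2.21 FPKM in ICI and 21.2 ± 0.855 FPKM in Scop, and Acin1, an exon junction protein gene, at 26.7 ± 0.969 FPKM in ICI and 28.9 ± 0.969 FPKM in Scop. Srsf4 and Srrm2, a splicing factor and a scaffold of the speckle, had log2 fold changes of -0.09 (SE 0.05) and -0.08 (SE 0.06). Smarca4, Acin1 and Srsf4 had every ICI value below every Scop value, as did 4.36% of all tested genes. The genes named here were those of smallest p in their lists, which favours such separation. These shares are thus no fair comparison for them, and separation was not counted over the whole lists.

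Genes that make or process ribosomal RNA were measured as well. Of 35 genes of RNA polymerase I and ribosomal RNA processing 0 passed, with 0 higher and 3 lower at an unadjusted p under 0.05, and 32 of the 35 values were negative (median log2 fold change -0.13). Over all 12100 tested genes 7.46% were lower at an unadjusted p under 0.05, and 6709 values were negative. Npm1, a nucleolar chaperone, was at 79.9 ± 7.22 FPKM in ICI and 94.4 ± 12.0 FPKM in Scop, and Nhp2, a protein of the RNA-modifying particles, at 45.8 ± 2.68 FPKM in ICI and 53.3 ± 5.60 FPKM in Scop. Bop1, a large-subunit processing factor, was at 11.6 ± 1.74 FPKM in ICI and 13.8 ± 0.731 FPKM in Scop, and Polr1b, a polymerase I subunit, had -0.21 (SE 0.10). Of 19 tested snoRNA host genes, which carry the guide RNAs of ribosomal RNA modification in their introns, 0 passed, with 0 higher and 1 lower at an unadjusted p under 0.05 (median -0.09). That gene was Snhg1, at 49.5 ± 7.62 FPKM in ICI and 57.5 ± 3.75 FPKM in Scop. Zfas1, Snhg12 and Epb41l4aos had log2 fold changes of -0.16 (SE 0.10), -0.25 (SE 0.14) and 0.27 (SE 0.15).

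The cytosolic aminoacyl-tRNA synthetases, the counterparts of the family of Lars2 outside mitochondria, had 19 of 20 negative values (median log2 fold change -0.14). None passed (0 of 20, limma), and at an unadjusted p under 0.05 the count was 0 higher and 6 lower, where 7.46% of all tested genes were lower and 6709 of 12100 values were negative. Yars, the tyrosyl enzyme, was at 11.6 ± 1.66 FPKM in ICI and 15.3 ± 1.44 FPKM in Scop. Vars, the valyl enzyme, was at 5.65 ± 0.363 FPKM in ICI and 6.77 ± 0.382 FPKM in Scop. Both had every ICI value below every Scop value, as did 4.36% of all tested genes. Both were named for their small p, so that share is no fair comparison for them. Farsb and Aars had -0.25 (SE 0.08) and -0.22 (SE 0.08). Of 13 mitochondrially encoded transcripts 0 passed, and 0 did so without adjustment (median 0.07), where 12.0% of all tested genes did so in either direction. COX1, a subunit of cytochrome oxidase, was at 3710.2 ± 184 FPKM in ICI and 3352 ± 289 FPKM in Scop, and CYTB, COX3 and ND6 had log2 fold changes of 0.13 (SE 0.10), 0.10 (SE 0.07) and -0.17 (SE 0.11). Histone genes, many of whose transcripts lack a poly(A) tail, were chosen by the start of their names. Of 65 such genes 11 were tested, and 0 passed, also without adjustment (median 0.07), beside the same 12.0% of all tested genes. The linker histone genes H1f0 and H1f2 had 0.32 (SE 0.17) and 0.30 (SE 0.20), and H2bc4 and H3c15 had -0.08 (SE 0.10) and -0.14 (SE 0.13).

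How closely other genes followed each of the 5 was measured by the SD, over the 8 libraries, of the log2 ratio of a gene to the member, divided by the SD of the member itself. A value of 0 is a constant ratio, and 1 is what a gene that does not vary would give. The size of a gene's variation counts as well as its direction. A gene that varied much less than the member therefore cannot come near 0. Over the 7280 other genes averaging 5 FPKM or more, the median against Gm26917 was 1.02. Lars2 (0.21) and AY036118 (0.30) were the only 2 below 0.5, followed by Malat1 (0.69), Dbp (0.73) and Hes1 (0.80), while Neat1 was at 0.96. The SD of log2(FPKM + 1) was 1.13 for Gm26917, against 0.41 for Malat1 and 0.46 for Dbp. That difference limits how low Malat1 and Dbp could come. Lars2 and AY036118 are themselves among the 5 genes chosen with their values known. The measure has no test here, and the 8 libraries fall into separate levels of Gm26917, so no correlation is given.

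Lars2 and AY036118 named the same neighbours, Dbp, a clock output transcription factor (0.69 for Lars2 and 0.75 for AY036118), and Per2, a clock repressor (0.77 and 0.82). Dbp was at 34.5 ± 8.22 FPKM in ICI and 21.7 ± 4.86 FPKM in Scop, and Per2 at 7.07 ± 0.802 FPKM in ICI and 4.81 ± 0.635 FPKM in Scop. In Scop replicate 4 Dbp was at 28.1 FPKM and Per2 at 5.29 FPKM, and in ICI replicate 1 Dbp was at 22.4 FPKM, within the Scop libraries. Hes1, a Notch target, was at 85.5 ± 16.3 FPKM in ICI and 58.9 ± 6.25 FPKM in Scop.

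Malat1 had no close follower, with 0 of 7280 genes below 0.5. Its nearest were Cd81, a tetraspanin (0.59), Pfn2, an actin-binding profilin (0.60), Rnd2 (0.61), Ces1e, a carboxylesterase (0.63), and Pcolce2, a collagen processing enhancer (0.63). Cd81 was at 20.9 FPKM in Scop replicate 4, against 12.4 to 18.6 FPKM in the other Scop libraries and 18.2 to 22.1 FPKM in ICI. Unlike Malat1, it was highest in ICI replicate 1, and its value in Scop replicate 1 lay within the ICI range. The nearest to Neat1 were Phyh, a peroxisomal hydroxylase (0.45), Gabarapl1, of the autophagy machinery (0.46), Dcaf6, a ubiquitin ligase adaptor (0.47), Hscb, an iron-sulfur cluster co-chaperone (0.48), and Prkacb, a catalytic subunit of protein kinase A (0.49). Of the genes named here as nearest to Malat1 or Neat1, all but Ces1e had their lowest value in Scop replicate 3, as did Malat1 and Neat1. For Neat1 9 genes lay below 0.5, and Malat1 was at 1.57 against it. The SD of log2(FPKM + 1) was 0.41 for Malat1 and 0.23 for Neat1, and the larger variation of Malat1 enters that value. In the other direction Neat1 was at 0.90 against Malat1.

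**Figure D4:**
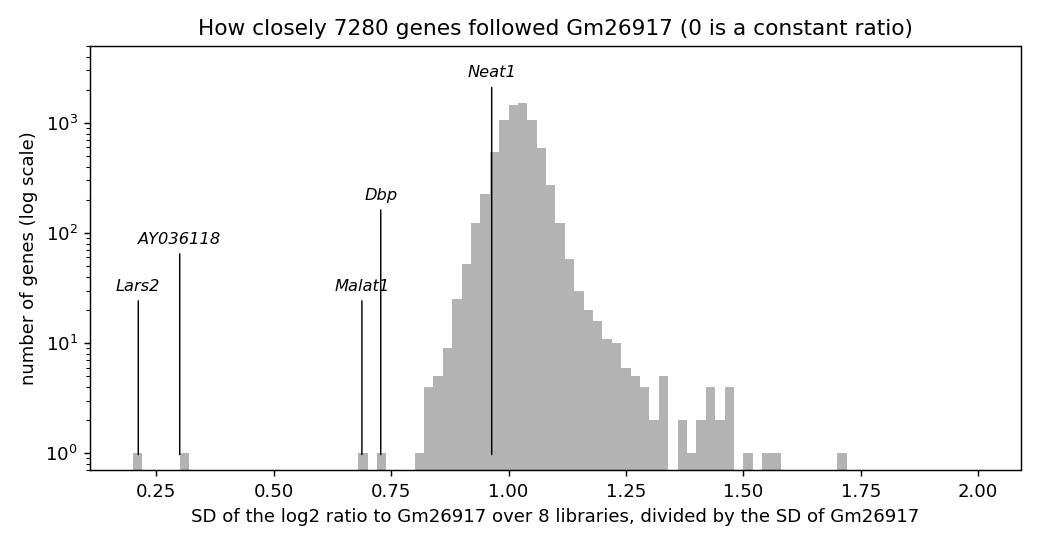
Number of genes (log scale) by the SD of their log2 ratio to Gm26917 over 8 libraries divided by the SD of Gm26917, for 7280 genes averaging 5 FPKM or more. Lars2 (0.21) and AY036118 (0.30) stand apart on the left, Malat1 (0.69) and Dbp (0.73) lie between, and Neat1 (0.96) lies within the bulk of genes. A gene that varied much less than Gm26917 cannot lie near 0.

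Between the groups the 5 genes were higher on average in ICI, and none of the 5 separated them. Over all 12100 genes limma called 0 higher and 0 lower at an adjusted p under 0.05 (0.0% in each direction), 1455 at an unadjusted p under 0.05 (12.0%), of which 552 were higher (4.56%) and 903 lower (7.46%). Quantile normalisation gave 728 higher and 717 lower without adjustment, and limma-voom on recovered fragments called 0 and 0, with 519 higher and 931 lower without adjustment. Of all tested genes 2.63% had every ICI value above every Scop value and 4.36% the reverse, against 0 of the 5 genes. The log2 fold changes, ICI over Scop on the log2(FPKM + 1) scale, were 1.45 (SE 0.49) for Gm26917, 1.76 (SE 0.53) for AY036118, 1.26 (SE 0.42) for Lars2, 0.52 (SE 0.18) for Malat1 and 0.24 (SE 0.12) for Neat1. The averages of Gm26917, AY036118, Lars2 and Malat1 moved most when Scop replicate 4 was left out. That of Neat1 moved most without Scop replicate 3 or without ICI replicate 1, where it was 0.34. Without Scop replicate 4 the 5 averages were 2.06, 2.39, 1.75, 0.73 and 0.23 in the same order, and without Scop replicate 1 they were 1.12, 1.40, 0.93, 0.52 and 0.29. Without Scop replicate 3 they were 1.35, 1.63, 1.27, 0.40 and 0.14. Without Scop replicate 4 the calls over all genes numbered 4 higher and 2 lower in ICI. The 4 higher were all among the genes described here, whose choice used these values, so this count is no test of them.

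**Figure D5:**
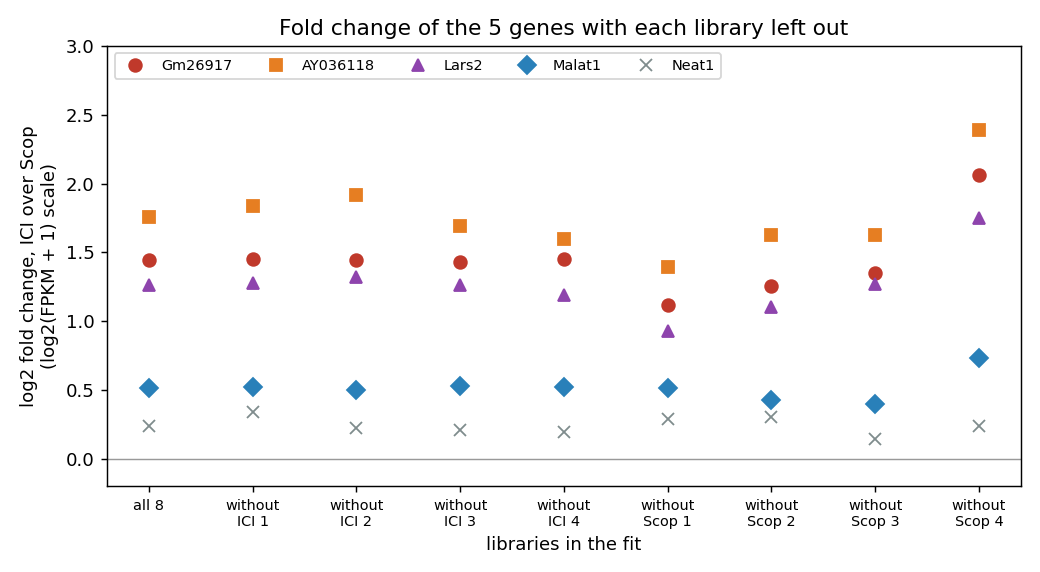
log2 fold change of each of the 5 genes, ICI over Scop on the log2(FPKM + 1) scale, with all 8 libraries and with each library left out in turn. Leaving out Scop replicate 4 raised Gm26917, the red circles, to 2.06, against 1.45 with all libraries, and leaving out any ICI library moved it to between 1.43 and 1.45.

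The tissue was checked by its markers. The summed FPKM of 8 corneal epithelial genes ran from 33081 to 35050.1 in ICI and from 33011 to 37786 in Scop, and that of 8 keratocyte genes from 1674 to 2257 in ICI and from 653 to 1977 in Scop. Scop replicate 3 stood apart in several of these sums. Its keratocyte sum was 653, where no other library was below 1664, and its epithelial sum of 37786 was the highest. Its conjunctival and goblet cell markers summed to 1984, against 1236 to 1398 in the other 7 libraries, its corneal endothelial markers to 77.1, against 98.7 to 189, and its blood vessel markers to 3.93, against 5.33 to 8.70. The summed markers of leukocytes ran from 53.3 to 59.1 FPKM in ICI and from 45.1 to 62.5 FPKM in Scop. Scop replicate 3 was again the lowest, at 45.1, where no other library was below 49.5. The sums of red cell markers ran from 2.21 to 7.14 in ICI and from 2.17 to 6.76 in Scop. In pooled tissue, fewer cells of a type and less RNA per cell cannot be told apart. Scop replicate 3 also had the lowest Malat1 and Neat1 values of the 8 libraries, and the part of these marker sums in them was not tested.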

How the data were processed

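RNA-seq libraries of 8 pools of mouse corneas, 4 ICI and 4 Scop, were deposited by the authors as 1 table of FPKM values. Per the labels' protocols, total RNA from a Qiagen column kit entered a Vazyme VAHTS library kit. The submitters' processing notes name mm10 and the tools fastp, HISAT2 and HTSeq. For versions, gene annotation, strandedness and ribosomal RNA removal, the state is: not given in the sources used here. Values at repeated ribosomal RNA sequence are therefore uncertain. Columns were matched to samples by title.

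Low values of a gene are whole multiples of 1 fragment, so depth and gene length, both whole numbers, were solved from the steps. Whole fragments (within 1e-06) came out for 22775 of 22776 genes above 0. Rows of the table held 99.9% of the depth in every library. FPKM are not counts, so the test was limma 3.58.1 in R 4.3.3 (eBayes with trend) on log2(FPKM + 1) over 12100 genes averaging 0.5 FPKM or more. It was two-sided, p-values were adjusted by Benjamini-Hochberg, and 0.05 was the threshold. It was tested on simulated data with known fold changes. Sequences were read from GENCODE M21 transcripts and searched with blastn 2.17.0 (megablast, word size 16, E-value limit 1e-10). The 5 genes, the lists and the rule for named genes were chosen with earlier results of these data known. The rule names the 5 genes, the tested genes of the ribosomal RNA list, the 5 nearest genes of each member and up to 4 genes of each other list with the smallest p. Vaultrc5 falls outside it and was named after its values were seen. Alternatives were other pseudocounts, filters, scalings, variance models, a block for replicate number, and omission of each library. A further alternative, limma-voom fitted to recovered fragments, was chosen after seeing the data.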

Additional observations from a re-analysis of the deposited data

Results flagged for a closer look

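In groups of 4, a library was singled out when its gap to the nearest other library was, relative to the range of the group, above Dixon's 95% critical value, which chance does for about 1 in 20 groups. Of 50 groups examined 6 were singled out, and 5 of them were Scop replicate 4. Gm26917 was at 4936 FPKM there, against 689 to 1119.6 FPKM in the other Scop libraries. AY036118 was at 34.3 FPKM, against 3.45 to 6.23 FPKM. Gm15564 was at 0.914 FPKM, against 0.167 to 0.218 FPKM. The summed FPKM of Gm26917, AY036118 and Lars2 was 5113, against 717 to 1177, and the 5 genes held 3.02% of fragments, against 0.491% to 0.732%. These 5 rest largely on the same rows and are not separate evidence. The 5 genes were chosen with these values known, and the list that holds Gm15564 with earlier results known. The chance rate therefore does not apply to them, and the values are a description. In ICI replicate 3 the summed FPKM of Gm26917, AY036118 and Lars2 was 3995, against 3826 to 3854 in the other ICI libraries.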

How the results depend on the processing

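The 105 recomputed fold changes of the 5 genes kept their sign and moved by less than the spread between replicates. That spread includes Scop replicate 4, so even a move of Gm26917 from 1.45 to 2.06 falls within it. The filters, the eBayes variants and the block for replicate number cannot move a fold change, so they are no check of it. Across settings that kept all libraries the fold changes ran from 1.39 to 1.46 for Gm26917, 1.35 to 1.95 for AY036118, 1.18 to 1.29 for Lars2, 0.47 to 0.54 for Malat1 and 0.19 to 0.28 for Neat1. With 1 library left out they ran from 1.12 to 2.06, 1.40 to 2.39, 0.93 to 1.75, 0.40 to 0.73 and 0.14 to 0.34 in the same order. The log2 ratio of the group means of the summed Gm26917, AY036118 and Lars2 was 0.96, and 0.68 to 2.03 with 1 library left out (lowest without Scop replicate 1, highest without Scop replicate 4). The 5 genes held on average 0.901% of summed FPKM in ICI and 0.469% in Scop, and 2.32% and 1.22% of recovered fragments, since FPKM divides by length. Limma called 3 genes higher and 4 lower with array weights, 4 higher and 2 lower without Scop replicate 4, 0 higher and 1 lower without Scop replicate 1 and likewise without Scop replicate 3, against 0 and 0 with all libraries and in the other settings. Leaving out 1 library gave 0 to 4 higher and 0 to 2 lower. At an unadjusted p under 0.05, genes higher in ICI numbered 862 without a filter and 318 at a filter of 5 FPKM, against 552, and 728 higher and 717 lower after quantile normalisation, against 552 and 903. The same-numbered samples of the groups deviated together with correlations of -0.01 to 0.29 over genes. Samples with different numbers were not compared in this way, so whether the numbers pair samples was not settled. With the replicate number as a block limma called 0 and 0, and 643 higher and 869 lower without adjustment. Depth limits Gm15564 most, with 14 fragments in Scop replicate 1.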
